A study of Mus musculus with 4 samples.

Results

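CTCF, its testis-specific paralog CTCFL and 8 subunits of the cohesin ring were followed as 10 genes of the 25824 gene symbols in single cell RNA-seq of mouse testis. They were chosen by name, and the rule used no measured value, but earlier results of these data were known at that time. CTCF, RAD21, SMC1A, SMC3, STAG1, STAG2, STAG3, SMC1B and REC8 were rows of all 4 count tables, and CTCFL was a row of the table of WT replicate 1.

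The study compared 2 WT mice with 2 Ctcf-cKO mice, each of which gave 1 library of dissociated testis cells made with ddSEQ droplets and a 3′ kit. All mice were of strain C56BL/6J and 15 weeks old by their labels, which call the WT genotype Ctcf wt/wt and the Ctcf-cKO genotype Stra8-iCre-Ctcf f/Δ. The study's methods widen this to littermates that were f/f, wt/f or wt/wt, so a WT mouse may carry floxed alleles, and give 12 to 15 weeks. The Stra8 promoter drives Cre in germ cells that are about to enter meiosis. Somatic cells of a Ctcf-cKO mouse therefore still hold a floxed allele beside the deleted one. The methods also state that 2 tubes of filtrate from the Ctcf-cKO mouse were pooled, and whether a tube held 1 mouse is not given, so the Ctcf-cKO libraries are counted as 2 mice by their labels alone. The WT libraries, replicates 1 and 2, held 6701235 and 4859455 counts, and the Ctcf-cKO libraries, replicates 1 and 3, held 2652665 and 1593546. Every Ctcf-cKO library was thus shallower than both WT libraries, and depth and genotype cannot be told apart.

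CTCF is a zinc finger protein that binds DNA and halts the cohesin ring as it extrudes loops of chromatin. The ring of dividing cells is made of SMC1A, SMC3, the kleisin RAD21 and either STAG1 or STAG2. Germ cells in meiosis exchange SMC1A for SMC1B, RAD21 for REC8 and the STAG subunit for STAG3, and these rings hold sister chromatids and the chromosome axis together. CTCFL, also called BORIS, shares the zinc fingers of CTCF and is known from male germ cells, where Stag3 is among its targets.

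In GRCm38 the genes lie on 8 chromosomes. Ctcf lies on chr8:105636568-105682922, Ctcfl on chr2:173093609-173119525, Rad21 on chr15:51962240-51991747 and Smc1b on chr15:85064689-85131964. Smc3 lies on chr19:53600398-53645833, Stag1 on chr9:100597798-100959375, Stag3 on chr5:138280240-138312393 and Rec8 on chr14:55618037-55625395. Smc1a, on chrX:152016428-152062694, and Stag2, on chrX:42149317-42277185, are the X-linked members. Ctcfl overlaps the antisense gene Ctcflos, and the 3′ end of Rec8 stands 5 bases from Ipo4, which is read from the opposite strand. Ctcf overlaps Agrp, Gm5914 and Gm5915, Smc1a overlaps Gm15267 and Stag2 overlaps Gm37564. Smc1b overlaps Gm10923, and Stag1 overlaps 5 annotated genes. Whether the counting used the strand is not given in the sources used here, so reads of these genes and their neighbours may not be separable.

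Promoters from RefSeq (GRCm38.p6, 250 bases before to 50 after the start) were at hand for 7 of the 10 genes. All 7 hold the core GCGGGA or its reverse TCCCGC, the core of sites bound by E2F factors, among them E2F6, which is known to keep Stag3 and Smc1b silent in somatic cells. The core was present in 6562 of 32851 promoters, and in 47.7% of the 9764 that have at least 18 CpG, the lowest number among the members. The stretches around the core are shown because the meiotic pair STAG3 and SMC1B resemble each other there. Each runs 5′ to 3′ with the core in capitals, on the strand that reads TCCCGC, which is the gene's own strand except for CTCF and SMC3.
STAG3 (chr5:138280495-138280524): tatcccgtgcctTCCCGCgtttttttctaa
SMC1B (chr15:85131987-85132016): aaaagaatttctTCCCGCgctttttttttt
REC8 (chr14:55618116-55618145): gtgtgcacctgaTCCCGCtggagggcgaca
SMC1A (chrX:152016455-152016477): cactgcgctattTCCCGCgcggg
STAG1 (chr9:100643421-100643450): aaaggccacgttTCCCGCgccgctgctgcg
SMC3 upstream (chr19:53600268-53600297): gaaaggcccctcTCCCGCggccctcttaga
SMC3 downstream (chr19:53600413-53600442): cgctccgctcgcTCCCGCtcgctccccctg
CTCF (chr8:105636298-105636327): ccgcacgcgcccTCCCGCgccctcgccggg

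The first base of the core stands at -2 from the start in STAG3, at -47 in SMC1B, at -38 in REC8 and at -15 in STAG1, and at 40 after the start in SMC1A. The longer stretch TCCCGCGNTTTTTT, written down after reading STAG3 and SMC1B, was found on either strand in the promoters of 3 genes, Stag3, Smc1b and Ribc2. Ribc2 is the divergent neighbour of Smc1b, and their windows overlap. Further motifs counted were CCCTC, the pentamer that gave CTCF its name, and AACNGNC, a core of MYB sites. CCCTC was present in 66.0% of all promoters and in the promoters of CTCF, SMC1A, SMC3, STAG1 and REC8, but not in these windows of STAG3 and SMC1B. AACNGNC was present in 32.8% of all promoters and in those of SMC3 and STAG3. These are matches of letters, and no binding was measured.

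Counts summed over every barcode of a mouse gave the members their largest numbers and were compared between the genotypes by edgeR's quasi-likelihood test, with the mouse as the replicate (n = 2 a genotype). Levels are in CPM, the count divided by the library total and scaled to 1e+06. Of the 9 members that passed the filter on low counts, 6 differed at an adjusted p under 0.05, against 28.5% of the 14552 genes tested. CTCF, SMC3, SMC1B and STAG3 were lower in Ctcf-cKO, as were 10.1% of all genes, and SMC1A and STAG2 were higher, as were 18.4%. The median log2 fold change of the 9 was -0.78, and that of all genes tested was -0.04. The plot of levels by mouse shows these values.

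**Figure D1:**
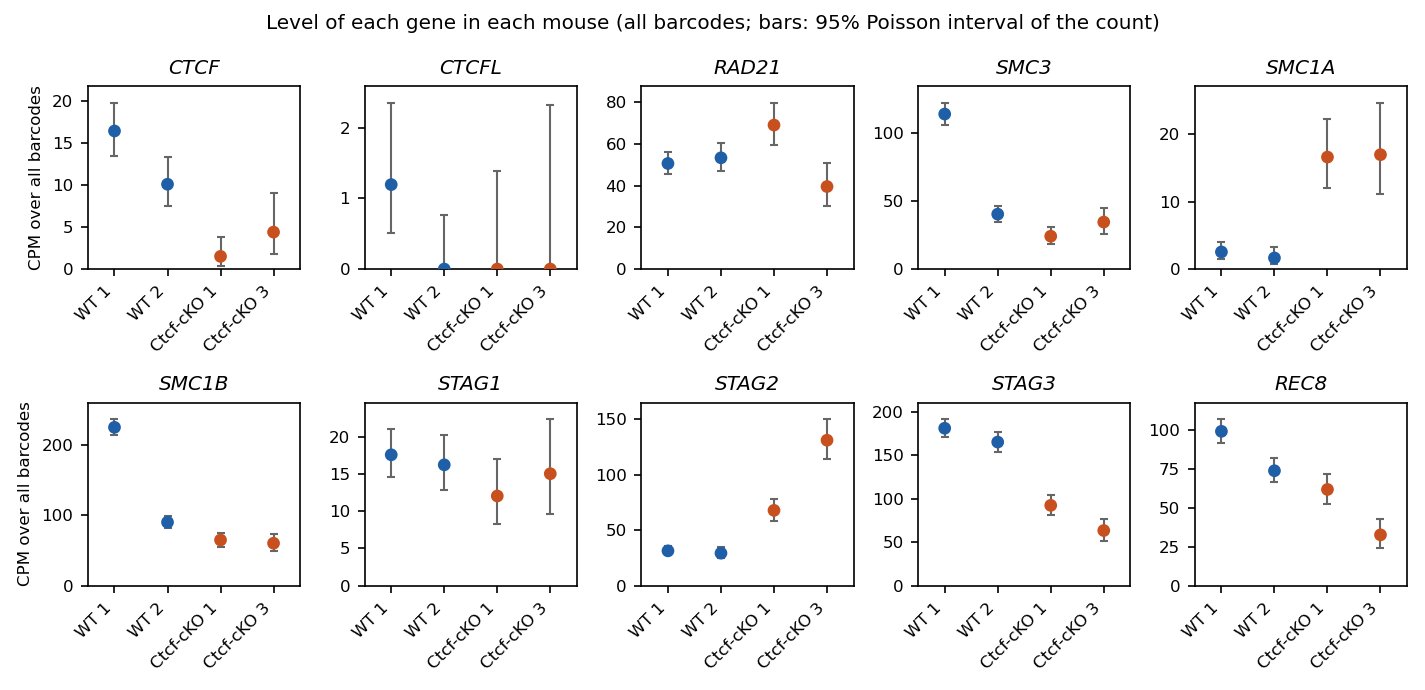
Level of each of the 10 genes in CPM (linear axes from 0) over all barcodes of each mouse, with WT in blue and Ctcf-cKO in orange. Points are single mice and bars are 95% Poisson intervals of the count. CTCF, SMC1B and STAG3 lie lower in both Ctcf-cKO mice and SMC1A and STAG2 lie higher, while RAD21 overlaps.

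CTCF, the deleted gene, had 110 and 49 counts in WT replicates 1 and 2, or 16.4 and 10.1 CPM. In Ctcf-cKO replicates 1 and 3 it had 4 and 7 counts, or 1.51 and 4.39 CPM. Both Ctcf-cKO mice were below both WT mice, at a log2 fold change of -2.19 ± 0.67 (SE, adjusted p = 0.0292). The 4 counts came from 1 barcode and the 7 from 2 barcodes, against 59 and 20 barcodes in WT. Which exons the deletion removes is not given in the sources used here, so a 3′ count may come from a part that remains and is no strict check of the labels. The call was lost in DESeq2 (adjusted p = 0.0574), in barcodes of 200 to 7000 genes (log2 fold change -2.83, adjusted p = 0.0666) and when WT replicate 1 (0.181) or Ctcf-cKO replicate 1 (0.179) was left out.

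CTCFL had 8 counts in 2 barcodes of WT replicate 1, or 1.19 CPM, and none in the other 3 mice. If each count is 1 molecule, a count of 0 still allows 3 counts. That is 0.617 CPM in WT replicate 2 and 1.13 and 1.88 CPM in the Ctcf-cKO mice. With so few counts CTCFL did not enter the test. Of the CTCFL targets listed, PRSS50, a testis protease, was counted 29 and 31 times in the WT mice, and 8 and 0 times in the Ctcf-cKO mice (log2 fold change -1.55 ± 1.004, adjusted p = 0.273). The other one, GAL3ST1, was not a row of the tables.

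Of the meiosis-specific subunits STAG3 and SMC1B were lower in Ctcf-cKO, and REC8 did not pass the test. STAG3, the STAG subunit of the meiotic rings, stood at 181 and 165 CPM in WT and at 92.4 and 63.4 CPM in Ctcf-cKO. The groups were apart, and the WT mice were closer to each other than the Ctcf-cKO mice were. The log2 fold change was -1.08 ± 0.24 (adjusted p = 0.00587). The call was kept without any 1 mouse except Ctcf-cKO replicate 3 (adjusted p = 0.107).

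SMC1B, which takes the place of SMC1A in meiosis, stood at 225 and 90.1 CPM in WT and at 64.8 and 60.2 CPM in Ctcf-cKO. WT replicate 1 was far above the other 3 mice. The log2 fold change of -1.25 ± 0.34 (adjusted p = 0.0176) shrank to -0.52 (adjusted p = 0.197) without that mouse, and leaving out either Ctcf-cKO replicate also ended the call (0.119 and 0.128).

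REC8, the meiotic kleisin, stood at 99.2 and 73.9 CPM in WT and at 61.8 and 32.6 CPM in Ctcf-cKO. Its Ctcf-cKO mice were also below both WT mice, but the log2 fold change of -0.78 ± 0.31 missed the threshold (adjusted p = 0.0809). Without WT replicate 2 it passed, at -0.98 (adjusted p = 0.0211).

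Of the subunits shared by mitotic and meiotic rings or used in somatic cells, SMC3 was lower and SMC1A and STAG2 were higher. SMC3, the partner of both SMC1 proteins, stood at 114 and 40.3 CPM in WT and at 24.1 and 34.5 CPM in Ctcf-cKO. As for SMC1B, WT replicate 1 was far above the rest, and WT replicate 2 lay close to Ctcf-cKO replicate 3. The log2 fold change of -1.34 ± 0.42 (adjusted p = 0.0331) became -0.47 (adjusted p = 0.437) without WT replicate 1, and the call was lost without Ctcf-cKO replicate 1 (0.229) or 3 (0.0935).

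SMC1A had 17 and 8 counts in WT, 2.54 and 1.65 CPM, against 44 and 27 in Ctcf-cKO, 16.6 and 16.9 CPM. The groups were apart, with a log2 fold change of 3.04 ± 0.58 (adjusted p = 0.0028), and the call was kept without each mouse in turn. It rests on few barcodes, 8 and 4 with a count in WT and 13 and 10 in Ctcf-cKO. STAG2, the more common of the somatic STAG subunits, stood at 31.3 and 29.2 CPM in WT and at 67.9 and 131 CPM in Ctcf-cKO. Its log2 fold change was 1.77 ± 0.32 (adjusted p = 0.00189), and 1.22 (adjusted p = 0.0545) without Ctcf-cKO replicate 3. In barcodes of 200 to 7000 genes, the range the study kept, it was 0.43 (adjusted p = 0.428).

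RAD21 did not separate the genotypes, with 50.6 and 53.3 CPM in WT against 69.0 and 39.5 CPM in Ctcf-cKO (log2 fold change 0.14 ± 0.31, adjusted p = 0.765). The Ctcf-cKO mice stood on either side of the WT mice. STAG1 stood at 17.6 and 16.3 CPM in WT and at 12.1 and 15.1 CPM in Ctcf-cKO (-0.27 ± 0.42, adjusted p = 0.674), with intervals that overlap.

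The makeup of the libraries moved with the genotype. Of the Leydig and Sertoli markers 15 of 15 each were higher in Ctcf-cKO, as were 12 of 13 macrophage and 9 of 9 tested peritubular and fibroblast markers. Leydig markers summed to 326 to 725 CPM in WT and to 8576 to 10096 CPM in Ctcf-cKO, Sertoli markers to 183 to 387 and 3039 to 3203 CPM. Macrophage markers summed to 21.6 to 194 and 1283 to 1453 CPM, with 4 of 13 at 0 in WT replicate 1, and peritubular and fibroblast markers to 162 to 189 and 728 to 1243 CPM. Of 27 tested spermatocyte markers 14 were lower, at 9686 to 9788 CPM in WT and 5965 to 6163 CPM in Ctcf-cKO, and of 24 round spermatid markers 15 were lower, at 7066 to 7819 and 5095 to 5222 CPM. Of the other lists, 3 of 7 spermatogonia, 1 of 5 endothelial and 4 of 4 red blood cell markers tested were higher, and of 20 elongating spermatid markers 1 was higher and 1 lower. In sums over all barcodes, fewer cells of a type and less RNA per cell cannot be told apart, and the part of this makeup in the members' differences was not tested in them.

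The barcodes that held the members' counts also differed between mice. Cells were taken as barcodes with at least 3 times the plateau of their library's depth curve, which gave 96 and 242 cells for the WT mice, and 228 and 251 for the Ctcf-cKO mice. Barcodes with under 200 genes, far below a cell, held 1.57% and 12.1% of all counts in the WT mice, against 40.8% and 46.9% in the Ctcf-cKO mice. The plot of the barcodes that held the counts shows the members' own shares. In WT replicate 1, 47.1% to 89.0% of each tested member's counts lay in barcodes of at least 200 genes that were not among the clustered cells. Over all genes these barcodes held 4655382 of the 6701235 counts of that mouse, so most of its library lay there.

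**Figure D2:**
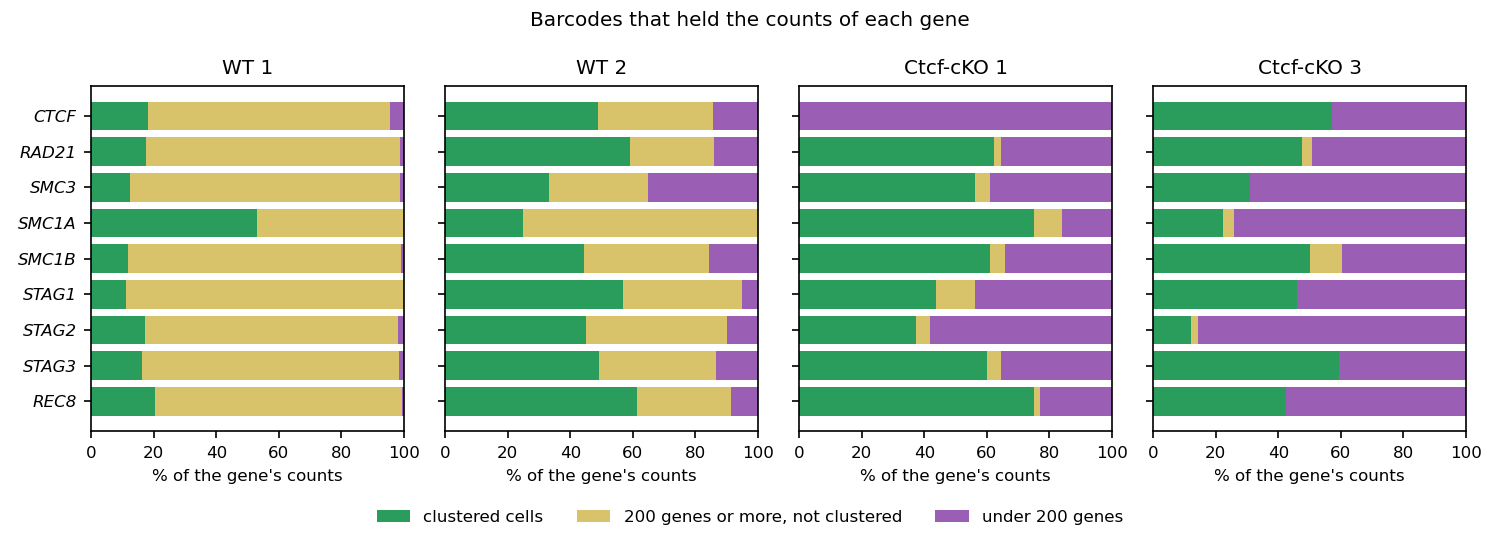
Share of each gene's counts (x axis, in %) that lay in clustered cells, in other barcodes with at least 200 genes and in barcodes under 200 genes, in each mouse. In WT replicate 1 the middle class held most counts of 8 of the 9 genes, as it did of the whole library. In Ctcf-cKO replicate 3 barcodes under 200 genes held 85.6% of the counts of STAG2, against 46.9% of all counts.

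STAG2 stood out in this respect. Barcodes under 200 genes held 4 and 14 of its counts in WT, 105 of 180 in Ctcf-cKO replicate 1 and 179 of 209 in Ctcf-cKO replicate 3. Its counts were spread thinly, at 1.45 and 1.15 counts for each barcode with a count in the Ctcf-cKO mice, where the mean over all genes was 4.05 and 3.40. In WT it was also low, at 1.86 and 1.97, where that mean was 3.02 and 3.72. Abundant genes weigh most in this mean, which divides all counts by all pairs of gene and barcode with a count. In these shallow barcodes alone the log2 fold change was 2.83 ± 0.53 (adjusted p = 0.00108), when 6.42% of 7879 genes were called and none of the other 5 members tested was.

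In the clustered cells alone 0 of 9 members passed the threshold, against 19.2% of 11547 genes, and 1 of 9, SMC1A, had an unadjusted p under 0.05. The differences kept their direction there and were smaller for 7 of the 9, as the plot of fold changes shows. STAG2 went from 1.77 to 0.72 ± 0.47, SMC1B from -1.25 to -0.48 ± 0.34 and STAG3 from -1.08 to -0.64 ± 0.32. SMC1A went from 3.04 to 2.38 ± 0.97, while CTCF was at -2.37 ± 1.16, and both errors were wider (adjusted p = 0.1002 and 0.164).

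**Figure D3:**
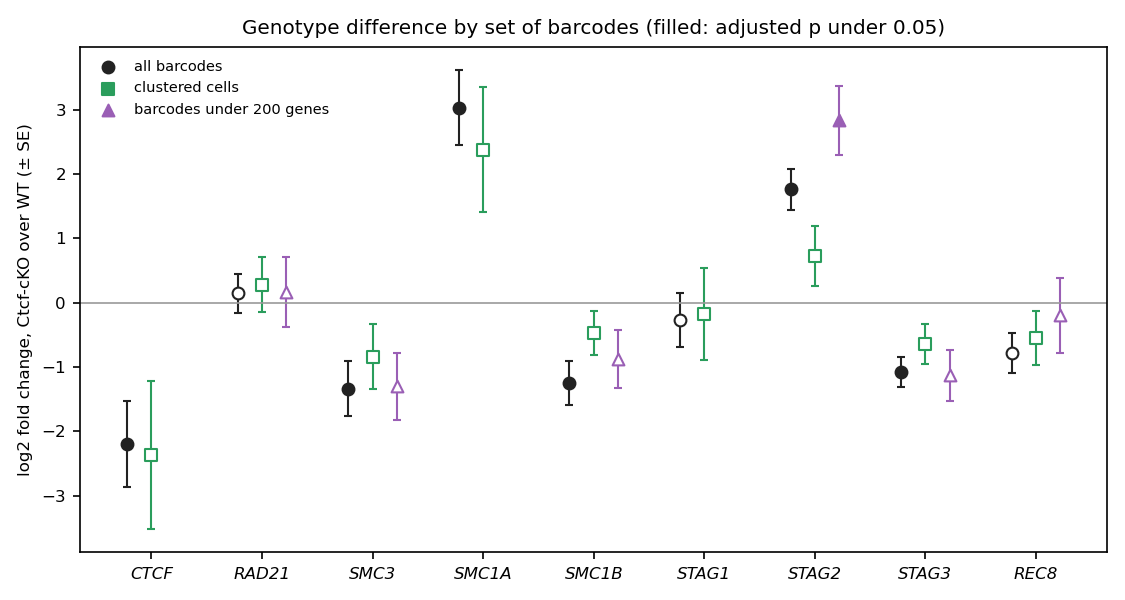
Log2 fold change of Ctcf-cKO over WT with its standard error for the 9 genes tested, over all barcodes (circles), clustered cells (squares) and barcodes under 200 genes (triangles, 6 genes). Filled symbols have an adjusted p under 0.05, and STAG2 in the shallow barcodes is the single filled symbol outside the circles.

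Levels by stage were described in 817 cells grouped with all 10 genes kept out of the clustering, so a level by class is a description without a test. Spermatocyte-like cells (5 and 31 in WT, 18 and 11 in Ctcf-cKO) had 24 of 28 spermatocyte markers raised. Round spermatid-like cells (15, 136, 40 and 7 in the same order of mice) came from 2 clusters, of which the second held none of WT replicate 1. These clusters had 21 and 16 of 24 round spermatid markers raised, and also 12 and 9 of 28 spermatocyte markers. Elongating spermatid-like cells (59, 43, 76 and 82) came from 4 clusters, in 2 of which the globin gene HBB-BS led. Somatic-like cells (11, 6, 49 and 111) were Leydig-like, Sertoli-like, macrophage-like and fibroblast-like, and 117 cells stayed unnamed. Pairs of libraries shared 723 to 1310 barcodes, and among cells 0 or 1. Markers of elongating spermatids summed to 73007 to 78450 CPM in the spermatocyte-like cells of 3 mice and to 5719 CPM in those of WT replicate 1. How much free RNA adds to the CPM of a class was not tested, and the level in barcodes under 200 genes is given as a background.

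**Figure D4:**
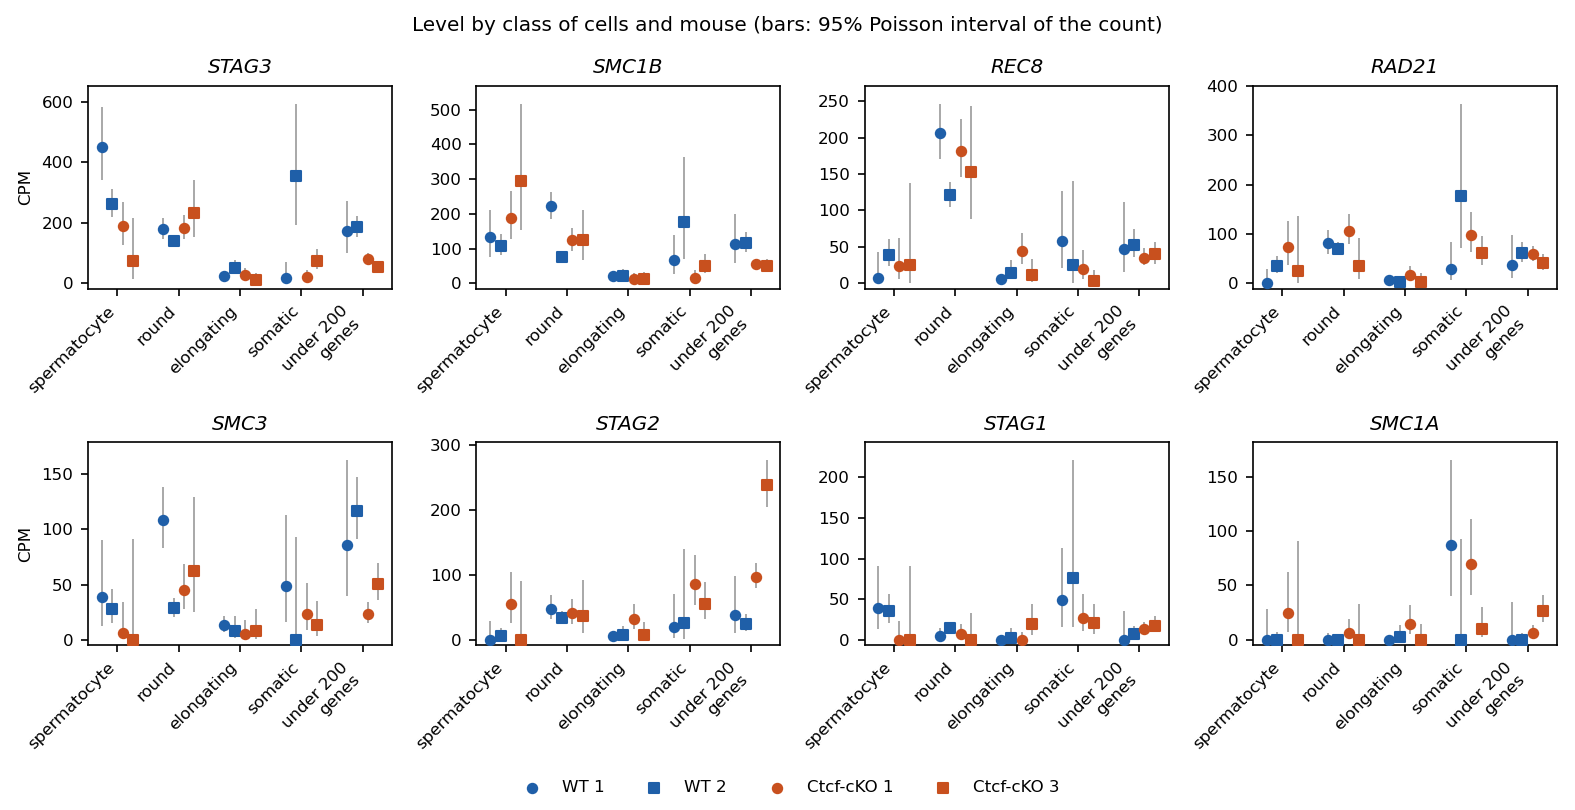
Level in CPM (linear axes) of 8 genes in each class of cells and in barcodes under 200 genes, with WT in blue and Ctcf-cKO in orange, a point for each mouse and 95% Poisson intervals. REC8 is highest in round spermatid-like cells of all 4 mice, and STAG3 and SMC1B are low in elongating spermatid-like cells.

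REC8 was highest in round spermatid-like cells of every mouse, at 206 and 121 CPM in WT and 182 and 152 CPM in Ctcf-cKO. The same mice had 7.77, 39.4, 24.3 and 24.6 CPM in spermatocyte-like cells and 47.6, 52.5, 35.2 and 40.1 CPM in barcodes under 200 genes. The lowest round spermatid-like value was thus above every value of the other 3 named classes and of the background. Both clusters of that class shared this, at 169 and 107 CPM over the mice, and REC8 was among the 10 leading genes of the second though it had no part in the clustering. Its levels in spermatocyte-like, somatic-like and elongating spermatid-like cells ran from 3.41 to 58.1 CPM and overlapped. Spermatocyte markers summed to 8811 to 10333 CPM in round spermatid-like cells and to 9163 to 15992 CPM in spermatocyte-like cells. The classes were thus not cleanly apart in these markers, and the part of meiotic cells in the REC8 level was not tested.

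STAG3 stood at 451 and 262 CPM in spermatocyte-like cells of WT, but in WT replicate 2 the somatic-like cells were above the spermatocyte-like cells, at 353 CPM from 14 counts. Round spermatid-like cells of WT stood at 179 and 140 CPM, beside a background of 171 and 185 CPM. In Ctcf-cKO the spermatocyte-like level was 188 and 73.9 CPM, the latter from 3 counts, and the round spermatid-like level 182 and 233 CPM. The spermatocyte-like level was thus above the round spermatid-like level in 3 of 4 mice, and the ranges overlapped. Elongating spermatid-like cells stood at 11.4 to 49.8 CPM, below the background of 54.8 to 185 CPM in each mouse.

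SMC1B stood at 132, 108, 188 and 296 CPM in spermatocyte-like cells and at 221, 75.9, 124 and 125 CPM in round spermatid-like cells, in the same order of mice. The ranges of the 2 classes overlapped. Its background was 114, 117, 54.6 and 50.8 CPM, and in WT replicate 2 it was above both classes, as was the somatic-like level of 177 CPM from 7 counts. Elongating spermatid-like cells had 11.4 to 22.4 CPM, which was under every value of both.

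RAD21, SMC3 and STAG2 were spread over round spermatid-like and somatic-like cells. RAD21 stood at 81.1, 70.2, 107 and 35.8 CPM in round spermatid-like cells and at 29.1, 177, 97.5 and 61.4 CPM in somatic-like cells, with no order between the 2. It was at 2.49 to 17.1 CPM in elongating spermatid-like cells, and at 38.1, 61.0, 60.1 and 41.4 CPM in the background. SMC3 was highest in round spermatid-like cells of every mouse, at 108, 28.5, 44.9 and 62.7 CPM, but in WT replicate 2 that was 45 counts and close to 27.6 CPM in spermatocyte-like cells. Its background was 85.7, 117, 23.1 and 50.8 CPM, above the round spermatid-like level in WT replicate 2. STAG2 varied least in round spermatid-like cells, at 47.3, 34.2, 40.7 and 35.8 CPM, and reached 95.9 CPM in the Leydig-like cluster over the mice (95% interval 65.6 to 135). That cluster held 6 and 0 cells of the WT mice and 23 and 46 of the Ctcf-cKO mice, so its level is mostly that of Ctcf-cKO. The background of STAG2 in Ctcf-cKO, 97.1 and 239 CPM, was above each of its class levels there.

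SMC1A and STAG1 were highest on average in somatic-like cells. SMC1A had 30 counts there over the mice, 43.3 CPM (29.2 to 61.8), against 3 counts in round spermatid-like cells, 1.09 CPM (0.225 to 3.19). By mouse the somatic-like level was 87.2 CPM in WT replicate 1, 70.2 and 10.2 CPM in Ctcf-cKO, and 0 counts in WT replicate 2, which allows up to 75.7 CPM. Its background was 6.48 and 26.7 CPM in Ctcf-cKO, in replicate 3 above the somatic-like level, with no count in WT. STAG1 stood at 48.4, 75.7, 27.3 and 20.5 CPM in somatic-like cells, from 3 to 7 counts a mouse, and at 38.9 and 35.4 CPM in spermatocyte-like cells of WT. In spermatocyte-like cells of Ctcf-cKO it had no count, which allows up to 18.2 and 73.9 CPM. Its background was 6.78, 12.9 and 17.4 CPM in the 3 mice with a count there.

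CTCF had 45 counts over the 4 classes, and 5, 7, 4 and 3 in the background. Spermatocyte-like cells of WT replicate 2 held 15 of them, 29.5 CPM, and those of WT replicate 1 held 0, which allows up to 23.3 CPM. Round spermatid-like cells held 6 and 6 in WT and 0 and 4 in Ctcf-cKO, and the 4 came from 1 cell. Elongating spermatid-like cells held 12 in WT replicate 1 and 0 in the other mice. In somatic-like cells, in which no recombination by Stra8-iCre is intended, CTCF was counted 2 and 0 times in WT and not at all in Ctcf-cKO. A count of 0 allows up to 11.7 and 10.2 CPM in Ctcf-cKO, so a difference in somatic-like cells was not detectable. CTCFL had 4 counts in 1 round spermatid-like cell of WT replicate 1 and none in the other classes.

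Within the classes, no member was called between the genotypes. On simulated counts the tests in spermatocyte-like, round spermatid-like and somatic-like cells found 0 of 200 genes changed by 2 on the log2 scale. A missing call there thus does not exclude a difference of that size. In spermatocyte-like cells 0 of 3677 genes (0%) were called, while 261 had an unadjusted p under 0.05. DESeq2 called 77. STAG3 and SMC1B, the members that passed the filter there, had log2 fold changes of -1.25 ± 0.71 (adjusted p = 0.851) and 0.98 ± 0.64 (adjusted p = 0.865). Leydig markers summed to 155 and 260 CPM in these cells in WT and to 14364 and 6453 CPM in Ctcf-cKO, and their part was not tested.

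In round spermatid-like cells 0 of 6378 genes (0%) were called, while 212 had an unadjusted p under 0.05. DESeq2 called 4. Of 6 members, REC8 was at 0.02 ± 0.44, RAD21 at 0.02 ± 0.63, STAG3 at 0.28 ± 0.40, SMC1B at -0.25 ± 0.54, SMC3 at -0.38 ± 0.74 and STAG2 at -0.11 ± 0.72 (adjusted p = 0.998 each). At about 2 standard errors, these values leave room for 2-fold differences in each direction for RAD21, SMC3 and STAG2. They also leave room for a 2-fold fall of SMC1B and a 2-fold rise of STAG3.

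In elongating spermatid-like cells 7.4% of 4081 genes were called, and STAG3, the member that passed the filter, was not, at -0.87 ± 0.83 (adjusted p = 0.675). Without the 2 clusters led by HBB-BS it was at -0.63 ± 0.92. In somatic-like cells 0 of 4006 genes (0%) were called, while 277 had an unadjusted p under 0.05. DESeq2 called 2. RAD21 was at -0.033 ± 1.049, SMC1A at -0.38 ± 1.47, SMC1B at -1.64 ± 1.07 and STAG3 at -1.60 ± 1.20 there. The rise of SMC1A seen over all barcodes was thus not called within somatic-like cells (adjusted p = 0.991). The difference of the genotype effect between spermatid-like and somatic-like cells was called for 0.16% of 7518 genes and for 0 of 8 members.

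The genes whose levels over the 16 sums of mouse and class were most like a member's were taken by Pearson's r of log2(CPM + 10), as a description of sums that share mice and depths. STAG3 was closest to VIT (r = 0.96), IRAK1BP1 and NEMP1 (0.94 each). SMC1B was closest to PDHB, 1700001G11RIK and NOP58 (0.92 each), and REC8 to FAM209 (0.89), GM49946 (0.88) and 1700001L19RIK (0.87). SMC3 was closest to USP7 (0.92), STAG1 to SAFB (0.92), STAG2 to GATAD2A (0.90) and RAD21 to ANTXR2 (0.89). CTCF, CTCFL and SMC1A had under 50 counts in these sums and were left out.

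Of the genes that load, release and cleave cohesin, 10 of 15 were tested over all barcodes, of which 3 were lower in Ctcf-cKO and none was higher, with a median log2 fold change of -0.66. Over all genes tested 10.1% were lower and 18.4% higher, with a median of -0.04. ESPL1, or separase, which cuts the kleisin at anaphase, stood at 38.5 and 30.9 CPM in WT and at 10.9 and 14.4 CPM in Ctcf-cKO (-1.40 ± 0.38, adjusted p = 0.0165). WAPL, which opens the ring, was at 166 and 112 against 81.8 and 75.9 CPM (-0.75 ± 0.24, adjusted p = 0.0363). NIPBL, which loads it, was at 414 and 161 against 135 and 146 CPM (-0.96 ± 0.33, adjusted p = 0.045), with WT replicate 1 far above the rest as for SMC3 and SMC1B. All 3 calls were lost without WT replicate 1, and also when either Ctcf-cKO mouse was left out.

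The related condensin and SMC5/6 complexes had 13 of 13 genes tested, 5 lower and 2 higher, with a median of -0.91, against the same 10.1%, 18.4% and -0.04 over all genes. SMC4, a core of condensin, stood at 480 and 292 CPM in WT and at 175 and 183 CPM in Ctcf-cKO (-1.04 ± 0.23, adjusted p = 0.00585). NCAPG2, a condensin II subunit, fell from 23.0 and 18.9 to 3.02 and 7.53 CPM (-1.999 ± 0.53, adjusted p = 0.0159). The 2 that rose were NSMCE4A of the SMC5/6 complex, from 6.27 and 11.9 to 32.4 and 43.3 CPM (2.12 ± 0.43, adjusted p = 0.00367), and NCAPH2 of condensin II, from 9.55 and 9.05 to 29.8 and 22.6 CPM (1.57 ± 0.41, adjusted p = 0.0138). The call of NSMCE4A was kept without each mouse, while NCAPG2 and NCAPH2 lost theirs without Ctcf-cKO replicate 1, and SMC4 without either Ctcf-cKO mouse.

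Of 10 proteins that bind or work with CTCF, 8 were tested, 3 were higher and none was lower, with a median of 0.14, where 18.4% of all genes were higher, 10.1% were lower and the median was -0.04. UBTF, a factor of ribosomal RNA genes, stood at 2.54 and 3.09 CPM in WT and at 16.2 and 37.7 CPM in Ctcf-cKO (3.29 ± 0.55, adjusted p = 0.00121). It was also called in elongating spermatid-like cells, where both WT mice had 0 counts and both Ctcf-cKO mice had 11. Of the 302 genes called in that class 291 were higher in Ctcf-cKO. Leydig markers summed to 28.7 and 179 CPM in its WT cells and to 4007 and 3896 CPM in its Ctcf-cKO cells, and their part was not tested. TOP2B, a topoisomerase found at loop anchors, was at 2.39 and 7.20 against 15.5 and 18.2 CPM (1.88 ± 0.60, adjusted p = 0.0357), and YY1, a zinc finger protein that also bridges loops, at 23.7 and 20.2 against 35.8 and 46.4 CPM (0.96 ± 0.33, adjusted p = 0.0453). The call of UBTF was kept without each mouse, that of YY1 was lost without any 1 of the 4, and that of TOP2B without each but WT replicate 2. Of the 10 genes named from these 3 lists, 3 were called in clustered cells alone (NSMCE4A, UBTF and YY1), against 19.2% of 11547 genes. In barcodes of 200 to 7000 genes 4 were called, against 3564 of 13426 genes. In barcodes under 200 genes 0 were called, against 506 of 7879 genes. The 10 were named because they were called over all barcodes, which include these sets, so these calls are no separate test.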

How the data were processed

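Reads had been aligned to GRCm38 (processing notes of the submitters), and the deposited table of each mouse gives raw counts, in whole numbers, by gene symbol and barcode. The study's methods cite earlier reports, with default settings, for the count tables. The counter's name and how reads of a molecule were merged are not given in the sources used here. Of the nonzero values 84.4% to 90.3% were at most 4, with a break after 4, so 1 molecule may give several counts. Poisson intervals and floors (3 counts) leave out the spread between mice. They also take each count as 1 molecule, so they are too narrow where 1 molecule gave several counts. The members and lists were chosen with earlier results of these data known. Barcodes with 200 to 7000 genes, at most 10% mitochondrial counts and 3 times the plateau count (a limit chosen after seeing the data) were clustered in scanpy 1.11.5 (2000 variable genes, 15 components, a rewritten Harmony, resolution 0.9), without the members and the lists. Doublets were not removed. Sums per mouse went into edgeR 4.0.16 (R 4.3.3), with filterByExpr, TMM factors and the quasi-likelihood test. A gene was called at a Benjamini-Hochberg adjusted p under 0.05, and its SE is the absolute log2 fold change over the square root of F. With 2 mice a genotype, p-values rest on the spread between these mice, which the test moderates toward that of the other genes tested. Every member was named. Of the lists, genes past the threshold were named, up to 4 a list by p. DESeq2 1.42.0, other scalings, filters, barcode sets, clusterings and each mouse left out were alternatives. On simulated counts with 200 genes changed by 2 on the log2 scale, the test over all barcodes found 120 with 2 false calls, that in elongating spermatid-like cells found 113 with 9 false calls, and those in the other classes found 0. No protein sequences were used here.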

Additional observations from a re-analysis of the deposited data

How the results depend on the processing

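Over all barcodes 4150 genes and 6 members were called. These became 2217 and 0 in clustered cells, 506 and 1 in barcodes under 200 genes, and 648 and 1 in barcodes of at least 200 genes that were not clustered, a set added after seeing the data. With each mouse left out the numbers ran from 1710 to 4444 genes and from 2 to 7 members, the fewest without Ctcf-cKO replicate 1 for genes and without Ctcf-cKO replicate 3 for members. Without a filter or with at least 10 counts in every library 4742 and 3153 genes and 7 and 4 members were called. RAD21 turned to -0.35 without Ctcf-cKO replicate 1 (-0.35 to 0.46 with a mouse left out), and to -0.29 in barcodes of at least 200 genes that were not clustered, where STAG1 turned to 0.38. Spermatocyte-like cells had 0 genes called, 77 in DESeq2, 68 without a filter and 0 to 54 with a mouse left out. Round spermatid-like cells had 0, 4, 39 and 0 to 66, and somatic-like cells 0, 2, 2 and 0 to 154. Elongating spermatid-like cells had 302, 103 without batch correction, 89 in the clusters not led by HBB-BS (added after seeing the data) and 205 to 615 with a mouse left out. The interaction had 12, and 4 without a filter. In round spermatid-like cells RAD21 turned to -0.032 in DESeq2, -0.15 without a filter, and -1.39 to 0.48 with a mouse left out, SMC3 to 0.57 and SMC1B to 0.42 without WT replicate 1 (from -1.02 and -0.79 at the lowest), and REC8 to -0.14 without a filter, -0.023 without batch correction and -0.38 to 0.19 with a mouse left out. In somatic-like cells RAD21 turned to 0.29 without a filter, 0.74 without batch correction and -0.78 to 1.37 with a mouse left out, SMC1A to 6.01 without WT replicate 1 (lowest -1.19) and STAG3 to 1.22 without WT replicate 2 (lowest -2.68). None of these turned values was called, and the cause was not tested. The class of highest mean was the same for 10 of 10 members at resolution 0.5, for 9 with a limit of 5 times the plateau and for 7 without batch correction, where RAD21, STAG1 and STAG2 differed. Counts divided by 4, added after seeing the data, called 6 members. The fit without batch correction was not run in spermatocyte-like cells, since a mouse had under 5 cells. No paired analysis was made, since the labels do not say whether any WT and Ctcf-cKO mice were matched. Depth limits CTCF, CTCFL and SMC1A most, which had 45, 4 and 44 counts in the classes.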

Other observations

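The 2 members that rose over all barcodes, SMC1A and STAG2, are the 2 members on the X chromosome, and the other X-linked genes were looked at after this was seen. Of 465 X-linked genes tested, 40.0% were higher and 3.66% lower in Ctcf-cKO, with a median log2 fold change of 0.79. Of 13853 genes on chromosomes 1 to 19, 17.7% were higher and 10.4% lower, with a median of -0.05. The X chromosome is known to be silenced in spermatocytes and largely in spermatids, while somatic cells of the testis express it. The somatic markers that rose with these genes are given above with the makeup of the libraries, and their part was not tested.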
